A study of Bos taurus with 25 samples.

Results

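Glycogen is the branched store of glucose that the liver builds when glucose is plentiful and breaks down to release it again. The genes described here are PPP1R3B, a regulatory subunit that brings protein phosphatase 1 to glycogen and so favours glycogen synthase over glycogen phosphorylase, and 5 genes of the same pathway. PPP1R3C is a related glycogen-targeting subunit, GYS2 and GYS1 are the liver and the muscle form of glycogen synthase, GBE1 is the branching enzyme, and PYGL is the liver form of glycogen phosphorylase, which releases glucose units from the polymer. In ruminants the liver makes most of the glucose of the body, and the lactating mammary gland takes up much of it for lactose. The 6 genes were chosen because the PPP1R3B probes were higher in the liver of cows given vitamin B12 than in control cows on these arrays, and the remaining 5 because of their place in the pathway. That comparison is therefore given as a description, with no test. The 6 genes are represented by 11 of the 43653 different probes and are 6 of 27841 gene names on the array.

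The samples were biopsies of multiparous Holstein cows taken 64 ± 3 days after calving, from 12 livers and 13 mammary glands, and 12 of 13 cows gave both. Every cow received a weekly intramuscular injection of 5 mL. The control cows received saline (3 livers and 3 glands), B9 cows 320 mg of vitamin B9, also called folic acid (3 and 3), B12 cows 10 mg of vitamin B12 (4 and 4), and B9 + B12 cows both vitamins (2 and 3). Each array held the labelled RNA of a single cow, and values are normalized intensities on the log2 scale, on which a difference of 1 is a change of 2-fold.

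Matched by RefSeq accession, PPP1R3B (NM_001103247) and PYGL (NM_001075203) have 3 probes each and GYS2 (NM_001192905) has 2. PPP1R3C (NM_001076164), GYS1 (NM_001101299) and GBE1 (NM_001122729) have 1 probe each. Where a gene has several probes, its values are those of the probe with the brightest signal in the tissue, and the others are given beside it. Levels of different probes are not comparable, since probes differ in how well they bind. The sequences of PPP1R3B on hand are those of the primers that the study designed for quantitative PCR of its transcript, shown 5′ to 3′ because PPP1R3B is the gene the description turns on.
PPP1R3B forward primer: tgcagtctacccagggaacag
PPP1R3B reverse primer: aaataactaggccactccggaaac
The forward primer has 21 bases, 57.1% of them G or C, and the reverse primer has 24 bases, 45.8% of them G or C.

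Between 71.2% and 84.2% of probes were well above background on a liver array and between 64.5% and 76.5% on a mammary array, and the number of arrays limits the precision. Both tissues carried the markers of their label. The summed intensity of 8 hepatocyte genes, ALB and TTR among them, was between 1659900 and 1883700 on the liver arrays and between 7359.5 and 37573 on the mammary arrays, and that of 7 mammary epithelial genes, CSN1S1 and LALBA among them, was between 1861300 and 1915000 on the mammary arrays and between 23299 and 65174 on the liver arrays. Of these 7 genes the keratins KRT8 and KRT18, which other epithelial cells also make, were brighter in the liver (means of 13.68 and 14.23) than in the gland (12.05 and 10.90). A pair of liver arrays stood apart. The array of cow 57 (B9) had a median correlation of 0.972 with the other liver arrays and that of cow 32 (B9 + B12) of 0.973, against 0.989 to 0.992 for the rest. The liver arrays of cows 43 (control), 37 (B12) and 32 (B9 + B12) were scanned on a later day than the remaining 9. In tissue RNA, fewer cells of a type and less RNA per cell cannot be told apart.

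In the liver, PPP1R3B had its highest group mean in B12 cows. At the brightest probe, the control livers had values of 9.70, 10.31 and 10.93 (cows 42, 51 and 43). The B12 livers had values of 11.07, 11.20, 11.44 and 11.75 (cows 52, 37, 36 and 40). Every B12 liver thus lay above every control liver, and the gap between the nearest pair was small beside the spread of the controls. The means were 11.37 ± 0.30 (SD, n = 4) with B12 and 10.31 ± 0.61 (SD, n = 3) in the controls, which is a difference of 1.05, or 2.07-fold. The other probes of PPP1R3B differed by 1.11 and 1.08, and their control values lay closer together, between 9.54 and 9.97 at one and between 8.86 and 9.12 at the other. The B12 livers lay between 10.62 and 11.27 and between 9.83 and 10.53 at these probes. Of the 27841 genes, PPP1R3B had rank 43 for the size of its rise, and 0.151% of genes had a larger one. Groups that did not overlap in this direction were found for 2.37% of all genes, and a difference of at least 2-fold upwards for 0.169%. The difference was 0.74 without control cow 42 and 1.36 without control cow 43, and 1.41 with the arrays of the first scan day alone.

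**Figure D1:**
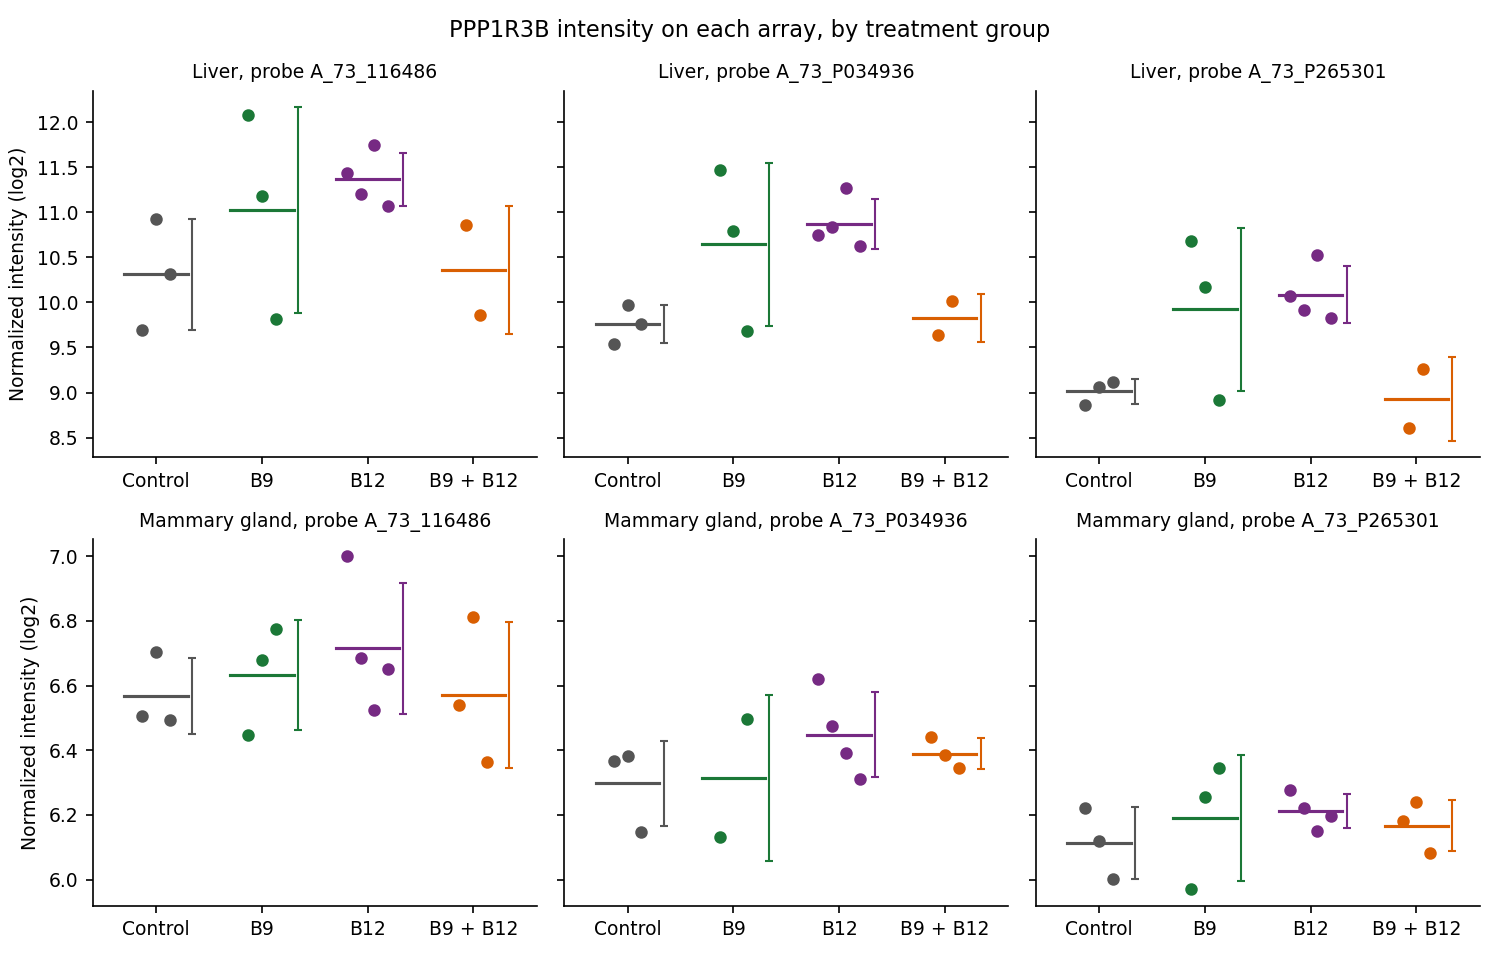
Normalized intensity (log2, vertical axis) of the 3 PPP1R3B probes on each liver array (upper row) and mammary array (lower row), by treatment group. Points are arrays, horizontal lines group means and bars the SD. In the liver the 4 B12 arrays lie above the 3 control arrays at every probe and the B9 arrays spread over both ranges, while all mammary arrays lie at about 7.0 or below.

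The B9 livers were divided. At the brightest PPP1R3B probe, cow 39 had the highest value of all livers, 12.08, and cow 41 had 11.18, but cow 57, whose array stands apart, had 9.81. Cows 39 and 41 thus lay above every control liver and cow 57 within the control range. The same order was found at the other probes, with values of 11.47, 10.79 and 9.68 at one and of 10.68, 10.17 and 8.92 at the other. The mean with B9 was 11.02 ± 1.14 (SD, n = 3), higher than the controls by 0.71 (standard error 0.53, 95% interval from −0.48 to 1.90), which limma did not call (adjusted p = 0.906). The exact permutation test, two-sided, gave p = 0.4, where 3 arrays against 3 cannot go below 0.1. The differences at the other probes were 0.89 and 0.91. These comparisons use the same control livers that PPP1R3B was chosen on, so that they are not independent of the choice, and the same holds for B9 + B12 against the controls. Without cow 57 the difference at the brightest probe was 1.32 (adjusted p = 1 by limma), without cow 39 it was 0.18 and without control cow 42 it was 0.40. With the slide as a fixed block it was 0.13. Cows 39 and 41 had the only liver arrays on their slides, so this fit takes the B9 level from cow 57 alone. The same applies to all liver differences with B9 given for slides as a block.

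With both vitamins together, the mean of PPP1R3B lay near that of the controls. The livers of cows 32 and 38 had values of 10.86 and 9.86 at the brightest probe, both inside the control range. At the other probes the order of these cows was turned, with 9.63 and 10.01 at one and 8.60 and 9.26 at the other. There cow 38 lay above every control liver, of which the highest had 9.97 and 9.12. The difference from the controls was 0.05 (standard error 0.60, 95% interval from −1.28 to 1.38; adjusted p = 0.983 by limma), and its sign depended on single arrays, being 0.55 without cow 38, −0.45 without cow 32 and −0.26 without control cow 42. The comparison of B9 + B12 with B9 also measures vitamin B12, in livers that the choice of PPP1R3B did not use. Here PPP1R3B differed by −0.66 (standard error 0.60, 95% interval from −1.99 to 0.67; adjusted p = 0.998 by limma; p = 0.5 by the exact permutation test, two-sided). Its other probes differed by −0.82 and −0.99. The difference was −1.27 without cow 57, −0.13 without cow 39, −0.16 without cow 38, −1.16 without cow 32, and 0.07 when the slide was a fixed block.

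PPP1R3C had the same order of livers as PPP1R3B among the controls and among the B9 cows, but not in the other groups. Its values were 12.21, 12.57 and 12.72 in the control livers and 12.95, 13.14, 13.29 and 13.35 in the B12 livers. Again every B12 liver lay above every control liver. The means were 13.18 ± 0.18 (SD, n = 4) and 12.50 ± 0.26 (SD, n = 3), a difference of 0.68, or 1.6-fold. With B9, cows 39 and 41 had 13.27 and 12.89, above the controls, and cow 57 had 11.14, the lowest value of all livers. The mean difference from the controls was −0.07 (standard error 0.44; adjusted p = 0.985 by limma) and became 0.58 without cow 57. With slides as a block, where B9 rests on cow 57, it was −1.22. The livers given both vitamins had values of 11.92 and 12.07, below every control liver, and the difference was −0.51 (standard error 0.49; adjusted p = 0.736 by limma; exact permutation test, two-sided, p = 0.2).

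GYS2 was lower than in the controls in most vitamin-treated livers. The control livers had values of 13.82, 13.12 and 12.94 (cows 42, 43 and 51). The B9 livers had values of 12.38, 12.64 and 12.74, all below the controls. The difference with B9 was −0.71 (standard error 0.38, 95% interval from −1.56 to 0.14; adjusted p = 0.906 by limma), and the exact permutation test gave p = 0.1, the lowest value possible here. The second GYS2 probe differed by −0.61 (standard error 0.24, unadjusted p = 0.0267 by limma) and the B9 livers were again all below the controls, at 9.09 to 9.28 against 9.48 to 10.20. The difference at the brightest probe was −0.44 without control cow 42 and −1.32 when the slide entered as a fixed block, where B9 rests on cow 57. The B12 livers had values of 12.44, 12.58, 12.64 and 13.09, of which 1 lay among the controls. At the other probe every B12 liver lay below every control, at 9.03 to 9.28 against 9.48 to 10.20. The mean difference with B12 was −0.61 at the brightest probe and −0.60 at the other, and the former was −0.34 without control cow 42 and −0.30 with slides as a block. With both vitamins, cow 32 had the lowest value of all livers, 12.07, and cow 38 had 13.71, inside the control range. The mean difference was −0.41 (standard error 0.43; adjusted p = 0.749 by limma), and was −1.23 without cow 38, 0.42 without cow 32 and −0.14 without control cow 42.

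GYS1 differed little between the groups. It lay between 9.40 and 10.24 on all 12 liver arrays, and its group means differed from the controls by 0.07 in the B9 group, −0.04 in the B12 group and 0.14 in the B9 + B12 group, with signs that depended on single arrays. GBE1 had control values of 9.0, 9.28 and 9.40, and its lowest livers were those of cow 36 (B12), at 8.09, and of cows 32 (B9 + B12), at 8.43, and 57 (B9), at 8.49. Both B9 + B12 livers lay below the controls, that of cow 38 only just, at 8.99. The difference with both vitamins was −0.51 (standard error 0.42; adjusted p = 0.703 by limma), the largest in size of the 6 genes in this comparison beside the −0.51 of PPP1R3C, and it was −0.80 without cow 38 and −0.23 without cow 32. With B12 it was −0.23, and 0.07 without cow 36. PYGL had control values of 13.38, 13.43 and 13.81, and B12 values of 13.32, 13.56, 13.95 and 14.02. The difference with B12 was 0.17 at the brightest probe, 0.04 and −0.16 at the others, so that the probes did not share a direction. At the brightest probe it was 0.07 without cow 36 and 0.31 without control cow 43. With both vitamins PYGL was 13.24 and 13.37, below the controls, the latter (cow 38) only just. The difference was −0.23 (standard error 0.23; adjusted p = 0.736 by limma; −0.10 without control cow 43), and −0.35 and −0.25 at the other probes. At the former of these the groups overlapped, with cow 38 at 13.26 and the lowest control at 13.23.

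**Figure D2:**
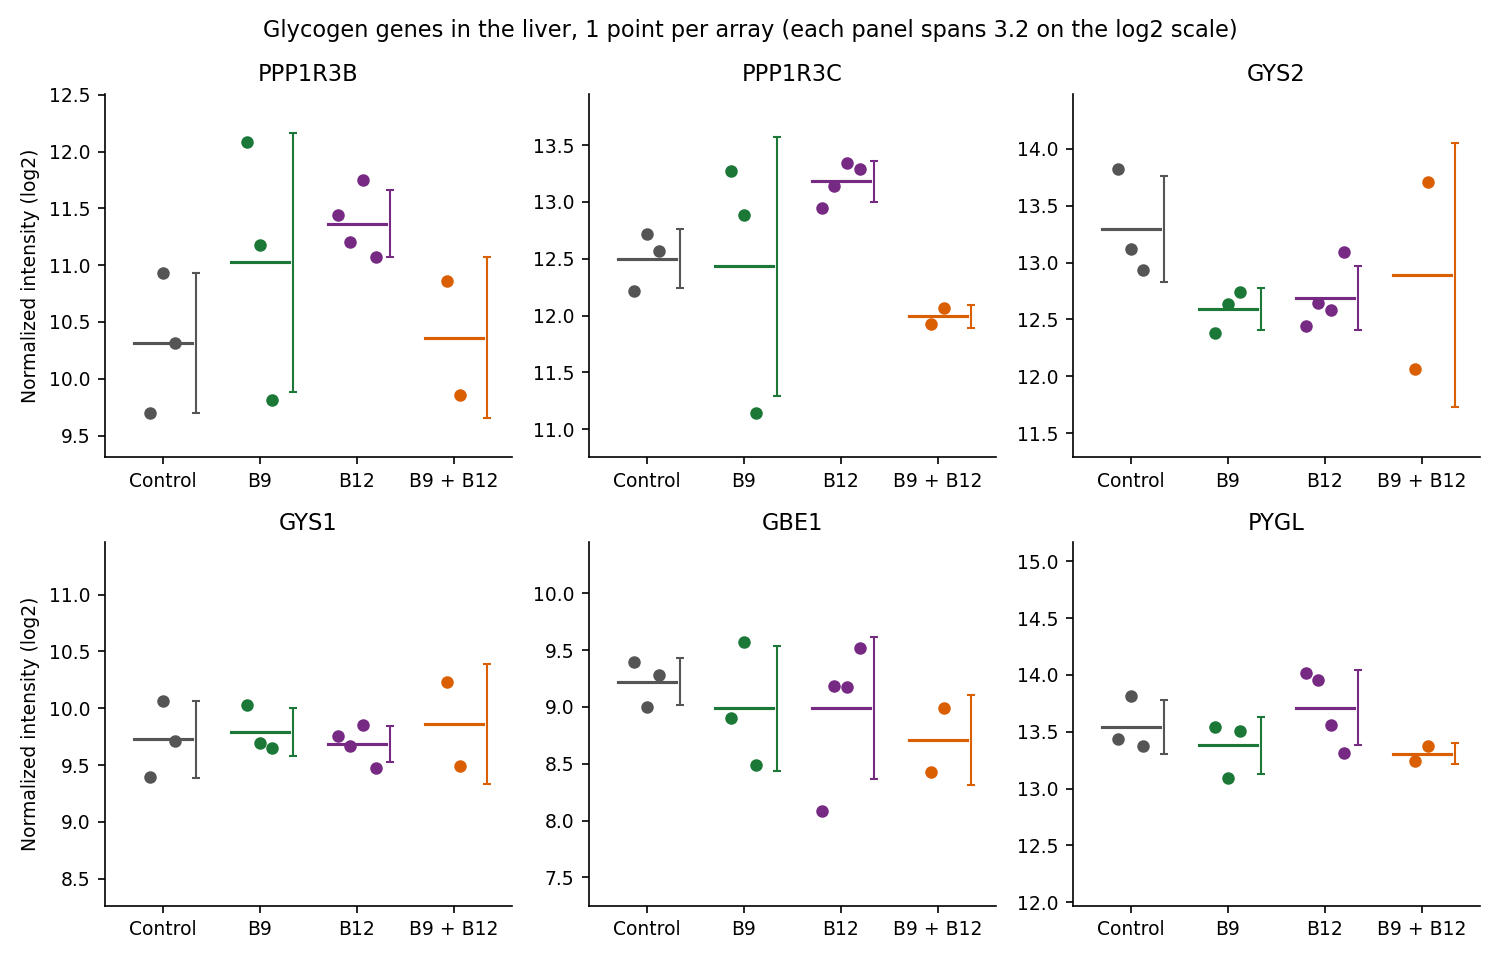
Normalized intensity (log2, vertical axis) of the brightest probe of each of the 6 genes on the 12 liver arrays, by treatment group. Points are arrays, horizontal lines group means and bars the SD, and each panel spans 3.2 units. PPP1R3B and PPP1R3C are the genes whose B12 livers all lie above the controls, and GYS2 is the gene whose B9 livers all lie below them.

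Counted over the 6 genes, 0 passed an adjusted p of at most 0.05 with a change of at least 2-fold in any liver comparison tested, by limma or by Cyber-T, and 0 had an unadjusted limma p below 0.05 at the brightest probe. Of the 5 other probes of these genes, 3 had one with B9 (both of PPP1R3B and that of GYS2), 1 with B9 + B12 (PYGL) and 2 for B9 + B12 against B9 (PPP1R3B and PYGL), with adjusted p values of 0.687 or more by limma. Among all genes, limma called 0% in each of these comparisons, and Cyber-T 0.0108% with B9, 0.0503% with B9 + B12 and 0.0251% for B9 + B12 against B9. An unadjusted p below 0.05 was found for 3.19% of all genes with B9, 5.89% with B9 + B12 and 4.49% for B9 + B12 against B9. Groups that did not overlap were found for 1 of the 6 genes with B9 (GYS2, lower), where 8.21% of all genes had them and 4.56% lay lower, and for 3 of 6 with B9 + B12 (PPP1R3C, GBE1 and PYGL, all lower). In that comparison 22.7% of all genes had groups that did not overlap and 9.32% lay lower, which a group of 2 arrays makes common. For B9 + B12 against B9 the count was 0 of 6, against 13.1% of all genes. The median difference of the 6 genes was −0.11 with B9, −0.32 with B9 + B12 and −0.18 for B9 + B12 against B9, beside 0.01, 0.02 and 0.02 for all genes. With B12, the comparison that the choice used, 2 of 6 genes did not overlap with the controls, PPP1R3B and PPP1R3C, both higher, and 1 of 6 differed by at least 2-fold, beside 5.01% and 0.356% of all genes. The treatment comparisons with the controls share the same 3 control arrays.

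**Figure D3:**
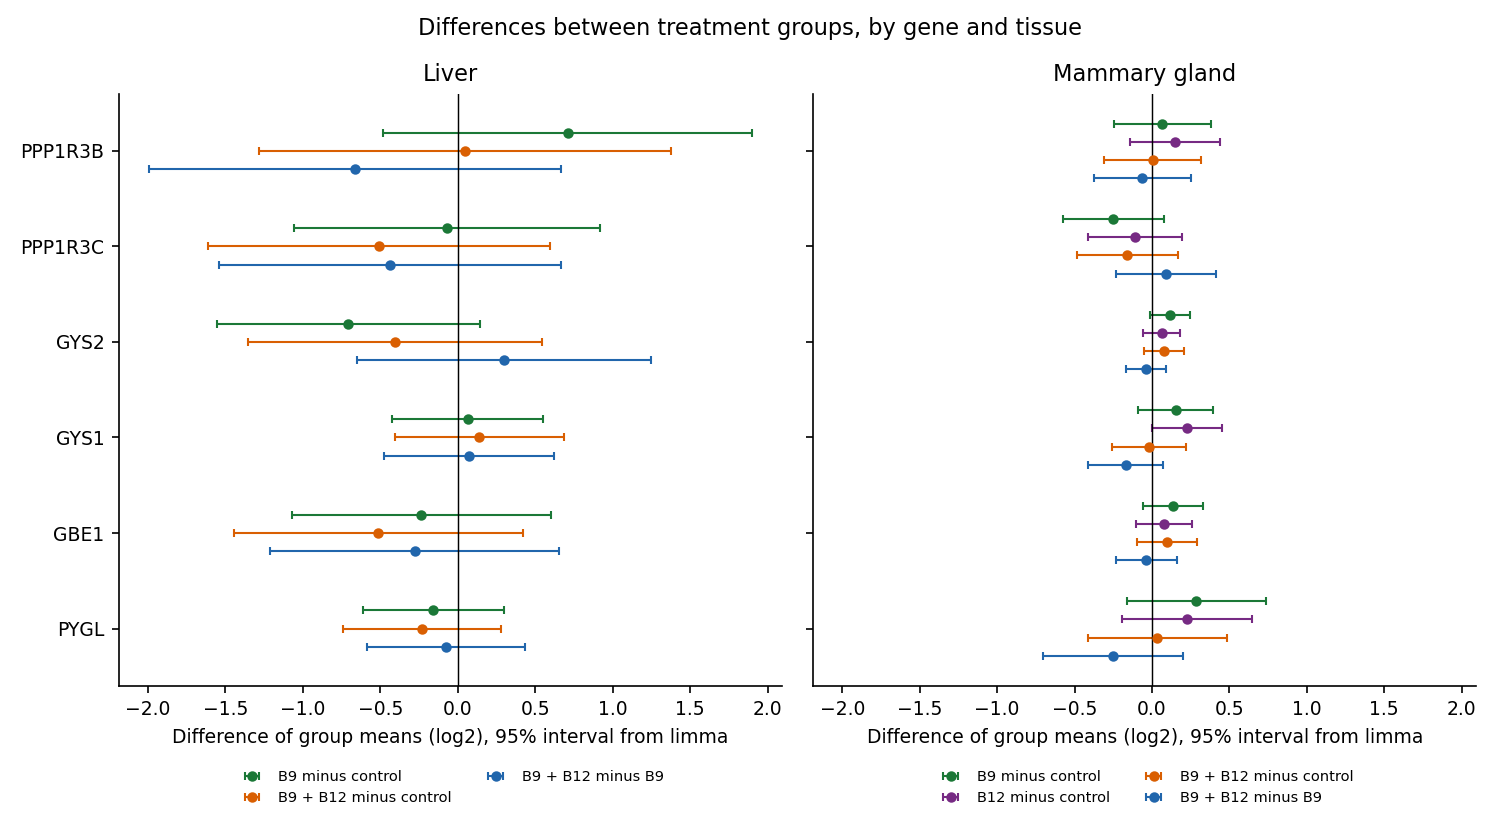
Differences between group means (log2, horizontal axis) for the 6 genes in the liver (left) and the mammary gland (right), with 95% intervals from limma. Colours are the comparisons. The liver intervals reach from −1.99 to 1.90, those of the gland stay within 0.74 of 0, and all but that of GYS1 with B12 in the gland contain 0.

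Other cell types were also measured on these livers. The summed intensity of 3 endothelial genes was lower in the 4 B12 livers (1489 to 1725) than in the 3 control livers (1824 to 2035) and highest in the B9 + B12 livers (2119 to 2452). That of 8 skeletal muscle genes was higher in the B12 livers (1021 to 1121) and the B9 livers (1061 to 1137) than in the control livers (956 to 984), and of these genes MYH1, PYGM and MYBPC1 among others lay near background in the liver. The B9 + B12 livers also lay above the controls in the summed intensity of 4 lymphocyte genes (2274 to 2881 against 1120 to 2194) and of 5 adipocyte genes (880 to 894 against 792 to 869). Of these adipocyte genes, CIDEC was the brightest in the liver and was brighter there (mean 8.84) than in the gland (6.92). FABP4 went the other way (6.85 and 15.97), and PLIN1, LEP and LIPE had low means in the liver (6.35, 6.14 and 6.20). The hepatocyte sum overlapped between the groups. In the gland, the summed intensity of the 5 adipocyte genes was higher with B9 + B12 (73301 to 78074) than in the controls (54387 to 67564). The part of these cell types in the differences given here was not tested.

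Across the 12 liver arrays, PPP1R3B and PPP1R3C varied together. Pearson's r was 0.81 and Spearman's rho 0.84, and r was 0.76 without cows 42 and 57, whose PPP1R3B values lay farthest from the median. When each array was set against the mean of its own group, r was 0.82. Most of this came from the B9 livers, whose SD was 1.14 for PPP1R3B and 1.14 for PPP1R3C. Within the B12 livers and within the B9 + B12 livers these genes did not share an order. Of 21201 genes measured in the liver, 0.0613% had an r with PPP1R3B at least as high. GYS2 varied in the opposite direction, with r of −0.68, rho of −0.67, r of −0.68 without cows 42 and 57 and of −0.62 within groups, and 0.774% of genes had an r as low or lower. GYS1 had an r of 0.53 and rho of 0.50, with 0.37 without those cows, and of 0.80 within groups. PYGL (r 0.29, rho 0.41) and GBE1 (r −0.05, rho −0.10) did not follow PPP1R3B. These are descriptions, since the arrays share the contrast that the genes were chosen on. In the mammary gland PPP1R3B correlated by 0.16 with PPP1R3C, −0.11 with GYS2, 0.44 with GYS1, 0.44 with PYGL and 0.04 with GBE1 over 13 arrays.

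**Figure D4:**
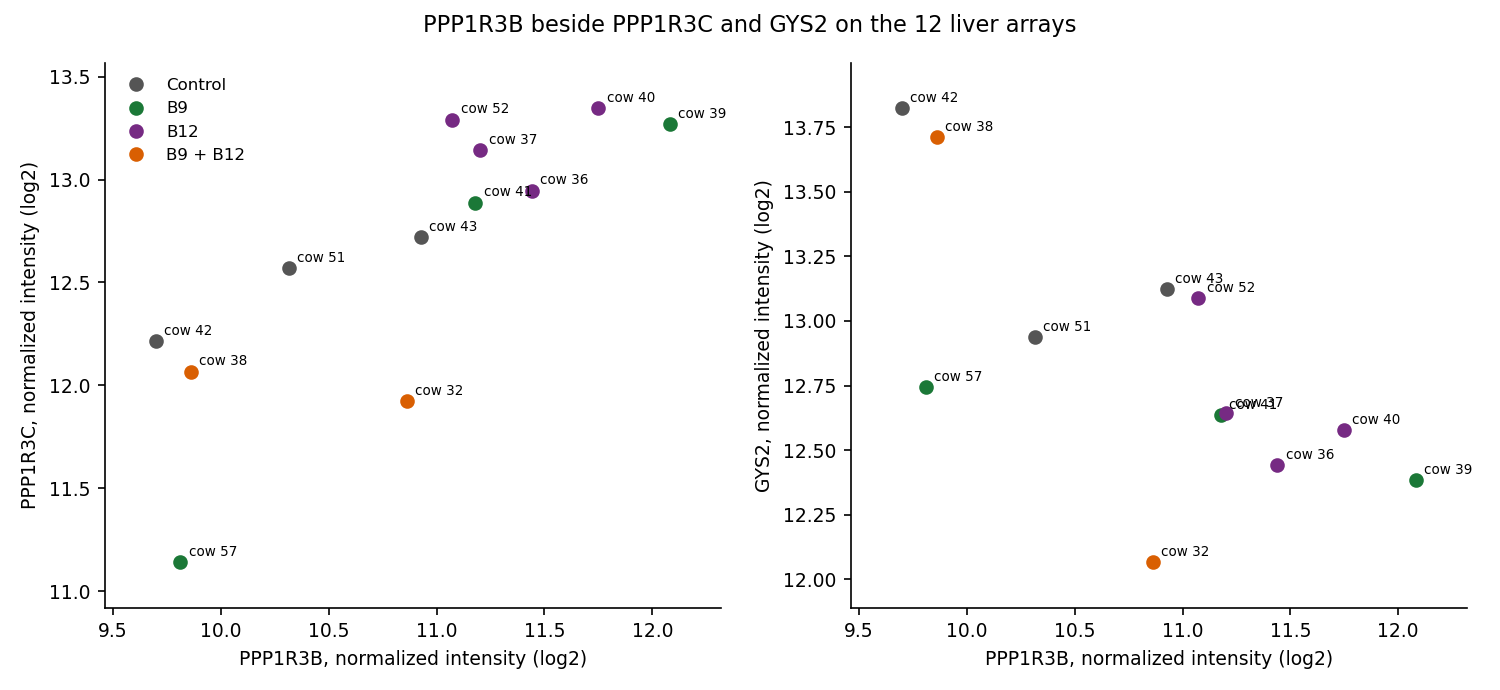
PPP1R3B intensity (log2, horizontal axis) beside PPP1R3C (left) and GYS2 (right) on the 12 liver arrays, with the brightest probe of each gene and colours for the treatment. Livers with more PPP1R3B have more PPP1R3C (r = 0.81) and less GYS2 (r = −0.68).

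The genes most like PPP1R3B over the liver arrays were RASSF5, a Ras-binding protein (r = 0.88), TSKU, a secreted leucine-rich repeat protein (r = 0.87), JPT1 (r = 0.87), the zinc finger gene ZNF322 (r = 0.85) and a transcript known on the array as ENSBTAT00000018440 (r = 0.84). Over the 13 mammary arrays the same pairs had r of 0.45, 0.09, 0.21, 0.19 and −0.20. The 3 probes of PPP1R3B correlated with each other by 0.82 to 0.98 in the liver and by 0.71 to 0.86 in the gland. The GYS2 probes correlated by 0.92 in the liver and by 0.13 in the gland, and the PYGL probes by 0.24 to 0.90 in the liver and by 0.66 to 0.88 in the gland.

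In the mammary gland, PPP1R3B was low and alike in all groups. The control glands had values of 6.49, 6.51 and 6.70. The B12 glands had values of 6.53, 6.65, 6.68 and 7.0, the B9 glands 6.45, 6.68 and 6.77, and the B9 + B12 glands 6.36, 6.54 and 6.81. All groups overlapped. The difference with B12 was 0.15 (standard error 0.13, 95% interval from −0.14 to 0.44; adjusted p = 1.00 by limma; 0.02 with slides as a block), with B9 it was 0.07 and with both vitamins 0.00. The difference with B12 was 0.30 when the background correction had an offset of 0 and 0.33 with the processed signal. Whether the effect of B12 differs between the tissues was not tested. At the second probe the spot of the B9 gland of cow 41 was an outlier and was left out.

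The other members were also close between the groups of glands. PPP1R3C lay between 7.43 and 8.12, GYS1 between 9.02 and 9.53, PYGL between 8.61 and 9.43 and GBE1 between 6.78 and 7.21. GYS2 was well above background on 1 of 13 mammary arrays, so that its values there, from 5.82 to 6.10, carry little information on treatment. Over the 4 comparisons the differences of the 6 genes lay between −0.25 and 0.29, limma and Cyber-T called 0 of 6 in each, and among all genes limma called 0% in each, while Cyber-T called 0.0144% with B9, 0.0251% with B12, 0.018% for the pair of vitamins and 0.0108% for B9 + B12 against B9. An unadjusted p below 0.05 was found for 1 of 6 genes with B12, where 2.39% of all genes had one, and for 0 of 6 in the others, beside 2.42% with B9, 1.92% for the pair of vitamins and 2.35% for B9 + B12 against B9. It belonged to GYS1, which was higher with B12 by 0.23 (standard error 0.10, unadjusted p = 0.0496 and adjusted p = 1.00 by limma; exact permutation test, two-sided, p = 0.114, where 0.0286 is the smallest possible). Groups without overlap were found for 0 of 6 genes in each comparison, beside 6.7% of all genes for B9, 3.79% for B12, 6.76% for B9 + B12 and 6.31% for B9 + B12 against B9.

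The largest differences of these genes were between the tissues. In the liver, 5 of the 6 genes were called higher than in the mammary gland by limma on values normalized over both tissues, where 8.26% of all genes were called higher and 19.4% in either direction. On this scale PPP1R3B lay between 9.06 and 11.27 (median 10.26) in the 12 livers and between 6.56 and 7.37 (median 6.94) in the 13 glands, with no overlap. The difference was 3.15 (standard error 0.19), or 8.87-fold (adjusted p = 8.95e-12 by limma). Over the 12 cows with both tissues it ranged from 2.08 to 4.6. The other probes of PPP1R3B differed by 3.03 and 2.57.

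PPP1R3C was higher in the liver by 3.24 (standard error 0.16), or 9.48-fold (adjusted p = 3.09e-13 by limma). The glycogen synthases were divided by tissue, as their names imply. GYS2, the liver form, lay between 11.26 and 12.85 in the liver and between 5.84 and 6.21 in the gland, higher by 5.99 (standard error 0.13; adjusted p = 2.47e-19 by limma). It was well above background on 1 of 13 mammary arrays. The difference was 10.72 with the processed signal, 8.50 with an offset of 0 and 4.37 as the mean of both GYS2 probes, so that its size is not settled by these arrays. The second GYS2 probe was not well above background on any mammary array and was at least 6.53-fold higher in the liver, its means being 8.72 in the liver and 5.96 in the gland. GYS1, the form of muscle and most other tissues, was lower in the liver by −0.81 (standard error 0.08), which is 1.75-fold higher in the gland (adjusted p = 4.14e-08 by limma) and short of the 2-fold threshold. PYGL was higher in the liver by 2.97 (standard error 0.11), or 7.84-fold (adjusted p = 2.11e-15 by limma), and by 3.06 and 2.87 at the other probes. GBE1 had the smallest difference of the called genes, 1.1 (standard error 0.12), or 2.15-fold (adjusted p = 1.47e-07 by limma).

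For each of the 6 genes the direction was the same in 12 of 12 cows. The exact permutation test over cows, two-sided, gave p = 0.000488 for each, the smallest possible with 12 cows. The median difference of the 6 genes was 3.06, beside −0.03 for all genes. When the 75th percentile of each array replaced quantile normalization, the median of all genes moved to −0.86, GBE1 was at 0.81 and was no longer called, and 4 of 6 genes were called.

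**Figure D5:**
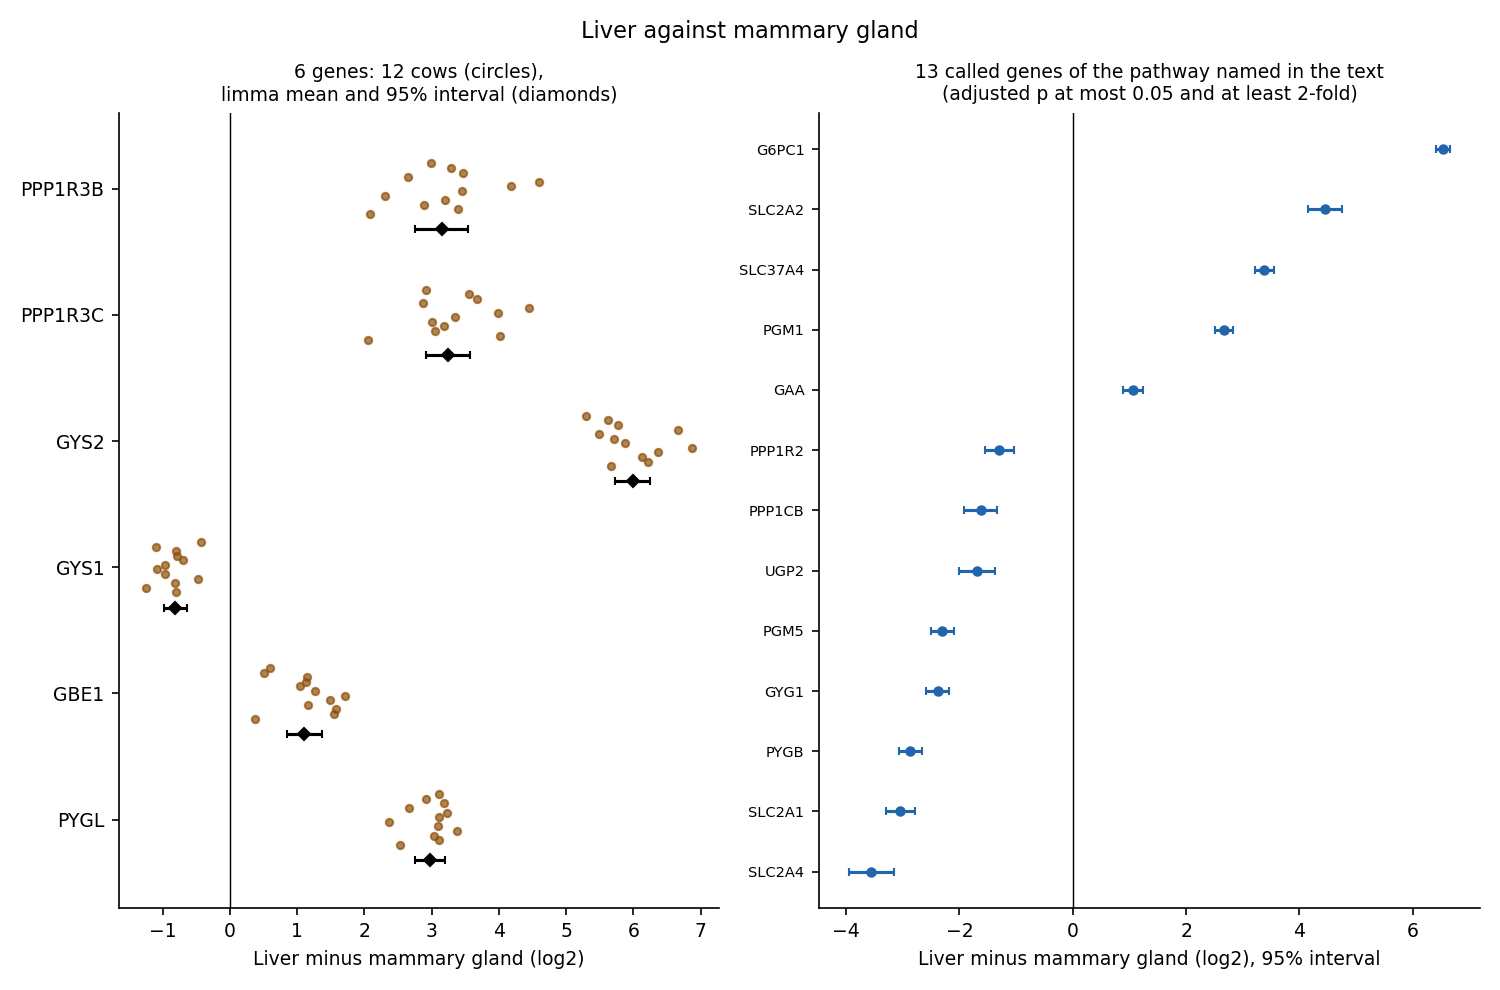
Liver minus mammary gland (log2, horizontal axis) for the 6 genes (left, circles are the 12 cows with both tissues, diamonds the limma mean with its 95% interval) and for 13 called genes of the wider set of glycogen and glucose genes (right, limma mean with its 95% interval). By the brightest probes GYS2 shows the largest difference of the 6 genes, of a size that is not settled, and GYS1 the one below 0. The second GYS2 probe, not shown, differed by 2.76. G6PC1 and SLC2A4 lie at the ends of the genes shown on the right.

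A wider set of 42 genes of glycogen and glucose handling was also examined, of which 27 were found by name. Between the tissues, 6 of the 27 were called higher in the liver and 9 lower, beside 8.26% and 11.1% of all genes. The highest were G6PC1, the glucose-6-phosphatase that lets the liver release free glucose, by 6.53, the liver glucose transporter SLC2A2, by 4.45, and SLC37A4, which carries glucose 6-phosphate to that phosphatase, by 3.38 (adjusted p = 7.90e-25, 2.16e-16 and 2.30e-18 by limma). G6PC1 and SLC2A2 were each well above background on 1 of 13 mammary arrays, and over the settings tried their differences ran from 6.36 to 11.15 and from 3.27 to 8.78, so that their sizes are not settled by these arrays. PGM1 and the lysosomal glucosidase GAA were called higher as well, by 2.67 and 1.06. Among those called lower in the liver were the glucose transporters SLC2A4 and SLC2A1, by −3.55 and −3.05 (adjusted p = 1.16e-12 and 1.33e-14 by limma), PYGB, the brain form of glycogen phosphorylase, by −2.87, GYG1, glycogenin, which primes new glycogen, by −2.39, PGM5 by −2.30, UGP2, which makes the UDP-glucose that glycogen synthase uses, by −1.69, PPP1CB, a catalytic subunit of protein phosphatase 1, by −1.63, and its inhibitor PPP1R2 by −1.30. With the 75th percentile scaling 6 were called higher and 13 lower. With the mean over their probes in place of the brightest one, SLC2A4 was at −0.72 and GAA at 0.37, and neither was called, while SLC2A1 was at −1.73 and GYG1 at −1.49. UGP2 was at −1.0 with the 75th percentile scaling. GAA was also not called without the liver array of cow 57, at 0.998, nor with slides as a fixed block, at 0.86, where PPP1R2 was at −0.97 and not called.

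None of the 27 genes was called by limma or by Cyber-T in any treatment comparison tested. At an unadjusted limma p below 0.05 the count was 1 with B9, 2 with B9 + B12 and 1 for B9 + B12 against B9 in the liver, and 1 with B12 and 0 in the other comparisons in the gland. The shares over all genes were 3.19%, 5.89% and 4.49% in these liver comparisons and 2.39% with B12 in the gland. Groups did not overlap for 2 of 27 with B9, 9 of 27 with B9 + B12 and 2 of 27 for B9 + B12 against B9 in the liver, beside 8.21%, 22.7% and 13.1% of all genes. In the liver, SLC2A2 differed most with B9, by −0.98 (standard error 0.40, unadjusted p = 0.0355, adjusted p = 0.906 by limma), and its 3 B9 livers lay below all controls. It was −0.60 without cow 57, and −1.80 with slides as a block, where B9 rests on cow 57. It also differed most with B9 + B12, by −0.86 (standard error 0.45; −0.48 without cow 32), followed by PPP1CB, by −0.71 (standard error 0.46). PPP1CB was second with B9, by −0.39 (standard error 0.41). Its difference with B9 + B12 was 0.06 without cow 32, and that with B9 was 0.05 without cow 57, the livers whose arrays stood apart. With slides as a block the difference with B9, again resting on cow 57, was −1.66. For B9 + B12 against B9 the largest differences were those of PGM5, 0.57 (standard error 0.14, unadjusted p = 0.00276, adjusted p = 0.921 by limma), and PYGB, 0.55 (standard error 0.26). With slides as a block these were 0.31 and 0.14, and PYGB was 0.13 without cow 32 and 0.96 without cow 38. In the gland, PGM5 was higher by 0.62 with B12 (standard error 0.21, unadjusted p = 0.0134, adjusted p = 1.00 by limma), by 0.42 with B9 + B12 and by 0.35 for B9 + B12 against B9 (0.21 without cow 31). UGP2 differed by −0.34 with B9 (−0.16 without cow 41, −0.54 without cow 57 and −0.60 with slides as a block), and GYG1 by 0.32 with B9 + B12. In the B12 and control livers, which the choice used, the 27 genes differed by −0.50 to 0.10, and 0 of 27 had groups that did not overlap, beside 5.01% of all genes.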

How the data were processed

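The 6 genes, the wider pathway set and the marker sets were chosen with earlier results of these data known. The authors deposited the scanner output of 25 1-colour arrays, with an intensity and a local background intensity for each spot, not normalized between arrays (Agilent Feature Extraction, version 9.1 in the submitters' notes and 10.7.3.1 in the file headers), and a table of processed log2 values. The median intensities underwent normexp background correction (offset 50) and quantile normalization, within each tissue or, to compare them, over both. Outlier spots were dropped and repeated spots of a probe averaged. The deposited log2 table, from which PPP1R3B had been chosen, had a median absolute difference of 0.00186 for liver and 0.000959 for mammary from values made by normexp with an offset of 16 and quantiles, and was used as an alternative.

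Groups were compared in R 4.3.3 by limma 3.58.1, fitted to every array of a tissue, and p values were adjusted over all probes by the Benjamini-Hochberg method. A gene was called when its brightest probe had an adjusted p not above 0.05 and differed by 2-fold or more. Single genes were also tested by exact permutation over arrays or, between the tissues, over cows. Cyber-T, the test of the study's methods, used a window of 101 and a confidence of 10. The tests were checked on simulated data. The pathway genes named are the 3 highest and 3 lowest between the tissues and the 2 with the largest difference in each treatment comparison tested, and any other was named after its value was seen. Some genes that enter the counts of the wider set are not reported here singly. The genes most like PPP1R3B are the 5 with the highest r. Since 12 cows gave both tissues, the cow pairs the arrays. Deviations of a cow's 2 arrays from their group means had a correlation that ranged from −0.25 to 0.26 over the cows (median 0.04).

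Alternatives were another background correction or scaling, outlier spots kept, dim probes left out, the slide as a block, the mean over a gene's probes, single arrays left out and, chosen after seeing the data, the scan day. Of the spots, 53.98% had a current gene symbol from RefSeq (assembly ARS-UCD2.0). The array annotation uses another build, so no position is given. Quantitative PCR values were not analysed here.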

Additional observations from a re-analysis of the deposited data

How the results depend on the processing

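No treatment difference that was tested, of the 6 genes or of the pathway genes named, was called under any setting tried, and the liver against mammary count was 5 of 6 genes except where scaling by the 75th percentile replaced quantiles (4 of 6, GBE1 at 0.81). With the cow as replicate block it was again 5 of 6, and the pairing changed no other call. Of the wider set, GAA was no longer called with the slide as a fixed block (0.86), with the mean over its probes (0.37) or without the liver array of cow 57 (0.998), PPP1R2 with the slide as a fixed block (−0.97) and SLC2A4 with the mean of its probes (−0.72). Uncalled differences given singly also changed sign, and the cause was not tested. With that percentile scaling PPP1R3C with B9 in the liver was 0.013, and PPP1R3B in the gland was −0.137 for B9 and −0.153 for the pair of vitamins. With the processed signal at its 75th percentile PYGL with B9 + B12 in the liver was 0.011 and PPP1R3B with B9 + B12 in the gland −0.093, and that gland value was −0.013 with an offset of 0, −0.050 with no background correction and −0.0015 in the authors' table. The slide as a fixed block gave 0.066 for PPP1R3B in the liver (B9 + B12 against B9) and −0.059 in the gland with B9. On the first scan day alone PPP1R3C with B9 was 0.041 in the liver, and with B9 + B12 PPP1R3B was −0.146 (−0.035 with the scan day as a block), GYS1 −0.064, GYS2 0.33 and PPP1CB 0.108.

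In the liver with B12, which had no test, GYS1 was 0.052 with the processed signal and 0.141 on the first scan day, and GBE1 was 0.076 with the slide as a fixed block.

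With single arrays left out, GYS1 ranged from −0.20 to 0.135 and GBE1 from −0.41 to 0.070 with B12 in the liver, PPP1R3C ranged from −0.49 to 0.58, GYS1 from −0.10 to 0.24 and PPP1CB from −0.69 to 0.053 with B9 in the liver, and with B9 + B12 PPP1R3B from −0.45 to 0.55, GYS1 from −0.23 to 0.51, GYS2 from −1.23 to 0.42 and PPP1CB from −1.48 to 0.058. In the gland PPP1R3B ranged from −0.0047 to 0.160 with B9 and from −0.115 to 0.109 with B9 + B12. Of the 27 differences given only as part of a range, 484 of 522 values kept their sign and 38 did not, and 0 were called. The percentile scaling put the median of all genes as high as 0.30 in a treatment comparison (B9 + B12 in the liver). A group left with 1 array is assumed to vary like the others, and a slide holds too few arrays for values within slides.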
